A study of Rattus norvegicus with 15 samples.

Results

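The 8 genes described here are commonly read as markers of reactive astrocytes. They were chosen by Ensembl identifier out of the 32552 genes in the count files, and an identifier was kept only where its listed chromosome was that of the intended gene, which was so for 8 of 8. They were C3, Lcn2, Serpina3n, Timp1, Cd44, Icam1, Vcam1 and Stat3. The symbols came from that list of identifiers, because the count files hold no symbols. The study asked whether adding mitochondria, or the mRNA that travels with them, brings the transcripts of oxidatively injured astrocytes back toward those of uninjured cells. Wild-type astrocytes from the cortices of newborn Sprague Dawley rats were held in 5 groups with 3 polyA RNA libraries each. Control wells received distilled water. All other wells received 100 µM hydrogen peroxide (H2O2) for 30 min, and the H2O2 group received nothing further. After 24 h, the remaining groups were given unmodified mitochondria isolated from rat placenta, the same organelles wrapped in the cationic and fusogenic lipids DOTAP and DOPE (MitoCoat), or mitochondria-associated mRNA enclosed in these lipids without the organelle (MitoCoat-mRNA). RNA was collected 6 h later. Mitochondria or MitoCoat were not given without prior H2O2 in these libraries. The sample labels speak of RNA from mitochondria-enriched fractions, whereas the study describes astrocyte RNA, and the latter reading was used. Astrocyte identity markers were not analysed here, so the labelled cell type was not checked.

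Astrocytes answer injury with a graded change in gene expression called reactivity, in which the cells remodel their matrix and display immune and adhesion proteins. Icam1 and Vcam1 are surface receptors that bind leukocyte integrins and are well-known targets of NF-kB, the transcription factor that inflammatory signals release from its inhibitor. C3 is the central complement protein and Lcn2 (lipocalin 2) a secreted carrier of iron-binding siderophores, and both are often used to mark inflammatory reactivity. Cd44 is the cell surface receptor for hyaluronan, Timp1 a secreted inhibitor of matrix metalloproteinases, and Serpina3n a secreted serine protease inhibitor. Stat3 is a transcription factor activated by phosphorylation downstream of IL-6 family cytokines, a step that mRNA levels do not measure.

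Total counts per library ranged from 35315654 to 46778663. Levels are given as counts per 1000000 counts (CPM) after TMM scaling over the 15 libraries, and group values as mean ± SD with n = 3. For each pair of groups, edgeR's two-sided quasi-likelihood test was run on the 6 libraries concerned. A gene is called higher or lower where its p, adjusted over all tested genes by the Benjamini-Hochberg method, was under 0.05. Of the 8 genes, 7 passed the filter on low counts in each comparison, and the Serpina3n identifier did not. Libraries carry the numbers 1 to 3 in each group. Nothing in the labels says that they came from separate cultures, so the p-values measure the spread between these samples. In bulk RNA, fewer cells of a type and less RNA per cell cannot be told apart. Scaled by exonic length, the mean level over all libraries was highest for Timp1, at 363 RPKM (CPM per kilobase of exon). Cd44 followed at 150.1 RPKM, Icam1 and Stat3 lay at 62.5 and 62.2 RPKM, and Lcn2, C3 and Vcam1 lay between 7.93 and 11.4 RPKM.

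**Figure D1:**
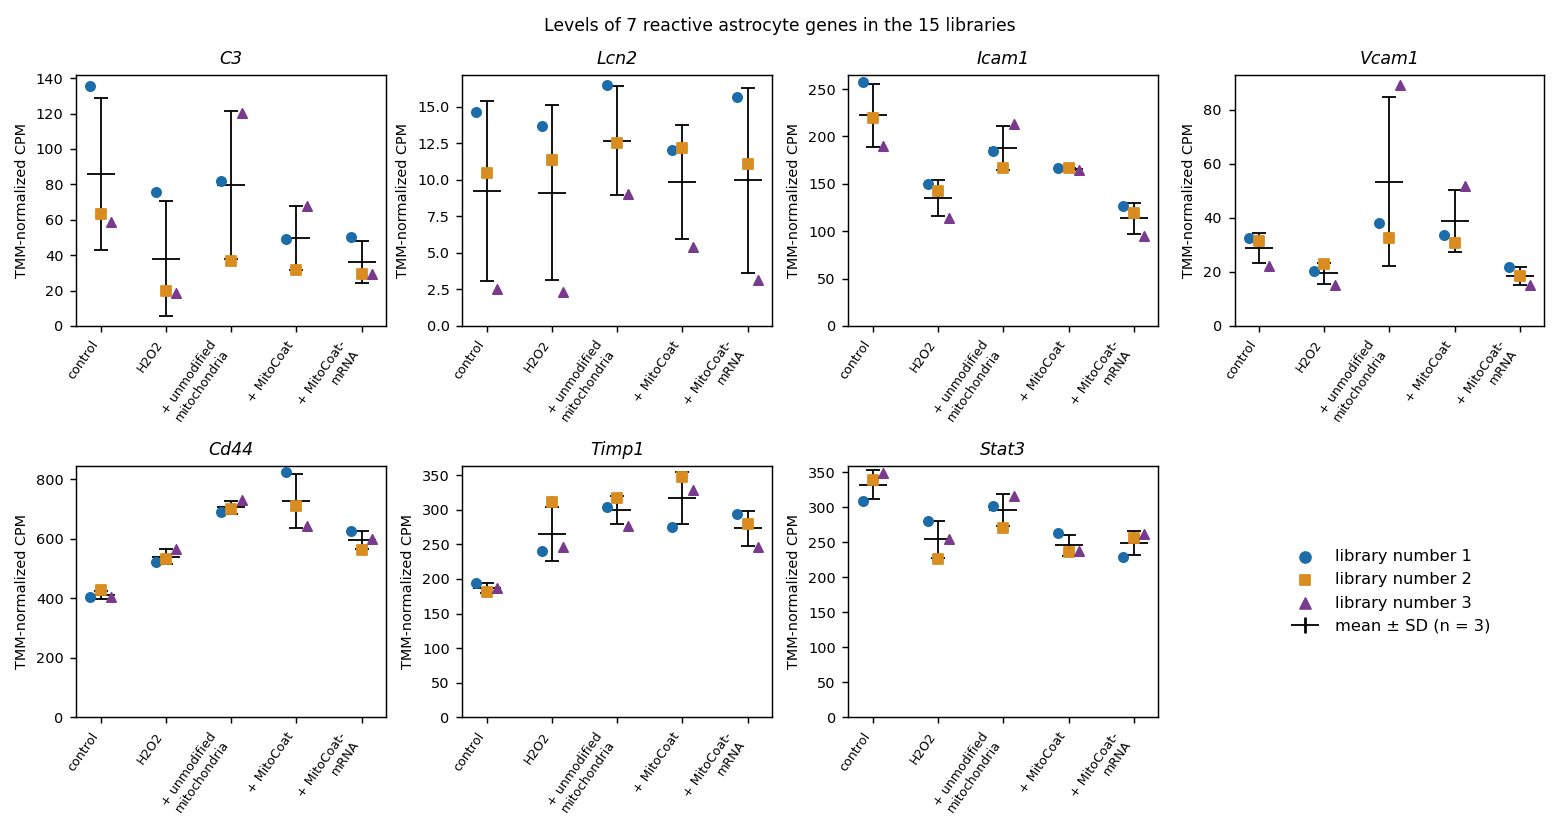
Levels of the 7 measured genes in TMM-normalized CPM (vertical axis, from 0) in the 5 groups (horizontal axis). Symbols mark the library number, and black bars the mean ± SD of 3 libraries. Icam1 was below the control libraries in each H2O2 library, Cd44 and Timp1 were above them in every H2O2-treated group, and number 3 was the lowest library for Lcn2 in each group.

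Icam1 (ENSRNOG00000020679, chr8:22035256-22047059 on the plus strand of Rnor6.0) was lower after H2O2, and its lowest mean was with MitoCoat-mRNA. Control libraries 1, 2 and 3 held 257, 219 and 190.4 CPM, and the H2O2 libraries 150.0, 143 and 114 CPM. The groups did not overlap, and every H2O2 library lay under the lowest control. H2O2 lowered Icam1 1.62-fold (log2 fold change −0.70, SE 0.14, 95% interval −1.02 to −0.38, edgeR adjusted p = 0.0218). The call was kept in 3 of 6 fits that left out 1 library. It was lost without H2O2 library 2 (adjusted p = 0.0527), H2O2 library 3 (0.0664) or control library 2 (0.0732).

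After unmodified mitochondria, Icam1 stood at 185, 167 and 213 CPM, each above the highest H2O2 library. MitoCoat libraries held 166, 167 and 165 CPM, a narrow range that also lay above H2O2. The MitoCoat-mRNA libraries held 126, 119.6 and 94.8 CPM and overlapped the H2O2 libraries. Against H2O2, the log2 fold change was 0.47 (SE 0.13) with unmodified mitochondria and 0.28 (SE 0.12) with MitoCoat, and neither passed the test (edgeR adjusted p = 0.0936 and 0.288). With the library number as a block, which fits a shared level for each number, the difference for unmodified mitochondria was 0.47 (SE 0.11) with an adjusted p of 0.00708. It was also called by DESeq2 on 6 libraries (adjusted p = 0.00914) or 15 (0.0167) and by edgeR with a minimal filter of 1 count in total (0.0218). It was not called by edgeR over 15 libraries (0.0565), with RLE size factors (0.0888) or in 0 of 6 fits without 1 library (0.0799 to 0.247). With MitoCoat, neither the block, DESeq2 nor the minimal filter called Icam1 (adjusted p from 0.126 to 0.272). With MitoCoat-mRNA the log2 fold change against H2O2 was −0.26 (SE 0.14, edgeR adjusted p = 1.00), although number by number the level was 1.19-fold to 1.20-fold lower in 3 of 3. Set against MitoCoat-mRNA instead of H2O2, Icam1 was higher with unmodified mitochondria (log2 fold change 0.73, SE 0.12, edgeR adjusted p = 0.00954) and with MitoCoat (0.54, SE 0.11, adjusted p = 0.0273). The first of these calls held in 6 of 6 fits without 1 library and the second in 2 of 6. The second was lost without MitoCoat library 2 (adjusted p = 0.106) or 3 (0.0518) and without MitoCoat-mRNA library 2 (0.0977) or 3 (0.0505).

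Vcam1 (ENSRNOG00000014333, chr2:219071193-219097619 on the minus strand of Rnor6.0) was called higher than H2O2 with both organelle preparations in edgeR on 6 libraries, while DESeq2 on 6 libraries and both fits over 15 libraries called it with 1 of the 2. Control libraries held 32.5, 31.3 and 22.3 CPM and H2O2 libraries 20.4, 22.8 and 15.3 CPM. These groups overlapped, since control library 3 lay below H2O2 library 2. The log2 fold change of −0.55 (SE 0.19, 95% interval −0.97 to −0.12) did not pass the test (edgeR adjusted p = 0.129), with H2O2 lower for each of the 3 numbers. Unmodified mitochondria gave 38.1, 32.6 and 89.3 CPM, of which library 3 was the highest Vcam1 value of the series. MitoCoat gave 33.8, 30.6 and 51.9 CPM. Both groups lay wholly above H2O2, and MitoCoat overlapped the controls.

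Against H2O2, Vcam1 rose 2.72-fold with unmodified mitochondria (log2 fold change 1.44, SE 0.33, edgeR adjusted p = 0.0443) and 1.98-fold with MitoCoat (0.98, SE 0.22, adjusted p = 0.0419). With the number as a block, the value for unmodified mitochondria was 1.31 (SE 0.21, adjusted p = 7.94e-05). When 1 library was left out, the log2 fold change ranged from 0.86 to 1.70 with unmodified mitochondria and from 0.71 to 1.13 with MitoCoat. The call for unmodified mitochondria held without its library 3, at a log2 fold change of 0.86 (adjusted p = 0.0380), and without its library 2 (1.70, adjusted p = 0.0183), but was lost, at log2 fold changes of 1.31 to 1.65, without its library 1 (0.0555) and without H2O2 library 1 (0.108), 2 (0.0836) or 3 (0.150). The call for MitoCoat was lost without MitoCoat library 1 (0.0568) or 3 (0.0908) and without H2O2 library 1 (0.128) or 3 (0.150). DESeq2 on 6 libraries gave an adjusted p of 0.0514 for unmodified mitochondria, and the fits over all 15 libraries gave 0.0847 (edgeR) and 0.0916 (DESeq2) for MitoCoat.

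With MitoCoat-mRNA, Vcam1 stood at 21.9, 18.6 and 15.2 CPM, within the range of H2O2 apart from library 3, which was lower by a small margin. Its log2 fold change against H2O2 was −0.07 (SE 0.18, 95% interval −0.47 to 0.33, edgeR adjusted p = 1.00). Against MitoCoat-mRNA, Vcam1 was higher with unmodified mitochondria (log2 fold change 1.53, SE 0.33, adjusted p = 0.0328) and with MitoCoat (1.05, SE 0.20, adjusted p = 0.0238). These calls held in 3 of 6 and 4 of 6 fits without 1 library. The first was lost without MitoCoat-mRNA library 1 (adjusted p = 0.0776), 2 (0.135) or 3 (0.0893), and the second without MitoCoat-mRNA library 2 (0.114) or 3 (0.0784). The second was also lost with the number as a block (0.0569), although the numbers do not pair these libraries by the rule used here. All 3 libraries with unmodified mitochondria were above the controls, library 2 by a small margin, with a log2 fold change of 0.89 (SE 0.34) that did not pass the test (edgeR adjusted p = 0.089). It was 1.15 without library 2 of unmodified mitochondria (adjusted p = 0.0437) and 0.31 without library 3 (0.238).

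The promoters of Icam1 and Vcam1 are shown because these adhesion receptors were called higher with either organelle preparation than with MitoCoat-mRNA. Each is 300 bases from RefSeq on GRCr8, from 250 bases before to 50 bases after the start site, printed in the direction of transcription. Capitals mark matches to a kappaB motif, the sequence bound by NF-kB, searched on both strands as GGGNNTTCC or GGAANTTCC, where N is any base. Icam1 lies at chr8:27829595-27829894 on the plus strand and Vcam1 at chr2:206742734-206743033 on the minus strand of GRCr8.
Icam1: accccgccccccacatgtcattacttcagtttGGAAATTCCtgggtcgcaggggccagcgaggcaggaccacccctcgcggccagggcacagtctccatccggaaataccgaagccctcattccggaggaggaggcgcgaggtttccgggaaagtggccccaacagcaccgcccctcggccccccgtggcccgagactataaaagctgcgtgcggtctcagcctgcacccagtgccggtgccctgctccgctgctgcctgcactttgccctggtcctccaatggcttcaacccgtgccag
Vcam1: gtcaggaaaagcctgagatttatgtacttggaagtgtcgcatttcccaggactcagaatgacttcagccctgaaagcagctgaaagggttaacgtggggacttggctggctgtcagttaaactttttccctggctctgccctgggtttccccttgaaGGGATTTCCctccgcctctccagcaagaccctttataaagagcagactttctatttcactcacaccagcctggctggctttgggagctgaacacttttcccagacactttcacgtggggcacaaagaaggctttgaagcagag

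The Icam1 promoter held GGAAATTCC from position −218 and the Vcam1 promoter GGGATTTCC from position −93 relative to the start site. Neither of these exact forms was found in the promoters of the other 6 genes. GGGNNTTCC matched only Vcam1 and GGAANTTCC only Icam1. Other kappaB forms were not searched, so a promoter without a match may still hold a kappaB site. GGGNNTTCC occurred in 5.92% and GGAANTTCC in 0.872% of 33469 promoters of the same length. The STAT motif TTCNNNGAA, found in 8.87% of promoters, matched Icam1 at position −107, outside its kappaB match, and Serpina3n at position −123. The AP-1 motif TGANTCA, found in 7.33% of promoters, matched 0 of the 8. These motifs were chosen after the promoters were seen. A match shows letters in a window and no binding.

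Cd44 (ENSRNOG00000006094, chr3:92696313-92783658 on the minus strand of Rnor6.0) rose with H2O2, and its level was higher again with either form of organelle. Control libraries held 404, 426 and 405 CPM, and H2O2 libraries 521, 534 and 567 CPM. Unmodified mitochondria gave 689, 699 and 731 CPM and MitoCoat 825, 712 and 645 CPM, while MitoCoat-mRNA gave 625, 563 and 598 CPM. Control, H2O2 and either organelle group formed 3 steps without overlap, and MitoCoat-mRNA overlapped H2O2. H2O2 raised Cd44 1.32-fold over control (log2 fold change 0.40, SE 0.08, edgeR adjusted p = 0.0230). Unmodified mitochondria raised it a further 1.30-fold over H2O2 (0.38, SE 0.08, adjusted p = 0.0367), by 1.29-fold to 1.32-fold for each number. MitoCoat stood 1.34-fold over H2O2 (0.42, SE 0.11), which did not pass the test (adjusted p = 0.0864) but was called by DESeq2 on 6 libraries (adjusted p = 0.0103) and by both fits over 15 libraries (0.00652 in edgeR, 7.4e-05 in DESeq2). With MitoCoat-mRNA the log2 fold change was 0.14 (95% interval −0.05 to 0.32, edgeR adjusted p = 1.00).

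The fold changes of Cd44 moved little when a library was left out, and the calls did move. In H2O2 against control, the log2 fold change ranged from 0.37 to 0.43 over 6 such fits, and the call was kept in 1, without H2O2 library 1. It was lost without H2O2 library 2 (adjusted p = 0.0565) or 3 (0.0968) and without control library 1 (0.0507), 2 (0.0969) or 3 (0.108). In unmodified mitochondria against H2O2, the log2 fold change ranged from 0.36 to 0.42 and the call was lost in 6 of 6 fits, with adjusted p from 0.0630 to 0.169. In MitoCoat against H2O2, it ranged from 0.31 to 0.49 and 0 of 6 fits called it (adjusted p from 0.0628 to 0.271). The minimal filter did not call it there either (0.0578). Against control, each of the 3 groups that received a treatment after H2O2 was called higher in 6 of 6 fits, with main log2 fold changes of 0.78 (unmodified mitochondria), 0.81 (MitoCoat) and 0.54 (MitoCoat-mRNA).

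Timp1 (ENSRNOG00000010208, X:1364786-1369384 on the minus strand of Rnor6.0) rose with H2O2 and showed no called difference among the groups that had received it. Control libraries held 194, 180.5 and 186 CPM. The H2O2 libraries held 240.2, 311 and 246 CPM, all above the controls, with library 2 highest. With unmodified mitochondria the values were 304, 317 and 277 CPM, with MitoCoat 275, 348 and 329 CPM, and with MitoCoat-mRNA 294, 279 and 246 CPM. All of these overlapped H2O2. H2O2 raised Timp1 1.43-fold (log2 fold change 0.52, SE 0.11, 95% interval 0.26 to 0.78, edgeR adjusted p = 0.0317). The call was kept in 2 of 6 fits without 1 library and lost without H2O2 library 2 (adjusted p = 0.0505) or 3 (0.0603) and without control library 2 (0.140) or 3 (0.113).

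Against H2O2, Timp1 had log2 fold changes of 0.17 (95% interval −0.10 to 0.43) with unmodified mitochondria, 0.25 (−0.05 to 0.55) with MitoCoat and 0.04 (−0.23 to 0.30) with MitoCoat-mRNA. None of these passed the test (edgeR adjusted p = 0.646, 0.455 and 1.00). Against control, Timp1 was higher in each of these 3 groups, by 1.60-fold, 1.68-fold and 1.47-fold, and each call held in 6 of 6 fits without 1 library. Timp1 lies within the span of ENSRNOG00000010365 on the opposite strand (X:1321315-1379198, plus strand), which drew 665 to 1091 counts per library where Timp1 drew 7406 to 14058. The methods state strand-specific counting only where applicable, so reads of the gene and its antisense partner may not have been told apart.

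C3 (ENSRNOG00000046834, chr9:9721105-9747167 on the plus strand of Rnor6.0) had the largest fold change of the 7 genes in H2O2 against control, and it did not pass the test. Control libraries held 135.6, 63.0 and 58.8 CPM and H2O2 libraries 75.5, 20.0 and 18.5 CPM. H2O2 library 1 lay above control libraries 2 and 3, so the groups overlapped, and within each number C3 was 1.79-fold to 3.18-fold lower after H2O2. The log2 fold change was −1.16 (SE 0.55, 95% interval −2.41 to 0.08, edgeR adjusted p = 0.250). Over 6 fits without 1 library it ranged from −2.14 to −0.68, with adjusted p up to 0.504. It was called in 1 of these, without H2O2 library 1 (−2.14, adjusted p = 0.0225). With the number as a block it was −1.37 (adjusted p = 0.00356), although the numbers do not pair these libraries by the rule used here. The SD was 50.3% of the mean in controls and 85.5% after H2O2, against 3.09% and 4.41% for Cd44.

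Unmodified mitochondria gave C3 levels of 82.2, 36.4 and 120.1 CPM, MitoCoat 49.0, 31.8 and 67.9 CPM, and MitoCoat-mRNA 50.1, 29.1 and 29.4 CPM. All 3 groups overlapped H2O2, whose library 1 was high. The log2 fold change against H2O2 was 1.06 (SE 0.54, edgeR adjusted p = 0.442) with unmodified mitochondria, 0.38 (SE 0.49, adjusted p = 0.811) with MitoCoat and −0.08 (SE 0.49, adjusted p = 1.00) with MitoCoat-mRNA. With the number as a block, the first was 1.19 (SE 0.25, adjusted p = 0.00159). Over 6 fits without 1 library it ranged from 0.64 to 2.05, with adjusted p up to 0.777. It was called in 1 of these, without H2O2 library 1 (2.05, adjusted p = 0.0320). Against control, C3 was called lower with MitoCoat-mRNA, 2.36-fold (log2 fold change −1.24, SE 0.34, adjusted p = 0.0420), with all 3 libraries under the lowest control. That call held in 3 of 6 fits and was lost without MitoCoat-mRNA library 2 (adjusted p = 0.145) or 3 (0.127) or control library 2 (0.0565). With the number as a block, the log2 fold change was −1.19 (SE 0.08, adjusted p = 1.09e-08), in a fit that called 36.9% of all tested genes.

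Lcn2 (ENSRNOG00000013973, chr3:11414186-11417546 on the minus strand of Rnor6.0) was low and varied more between library numbers than between groups. Control libraries 1, 2 and 3 held 14.6, 10.5 and 2.54 CPM, and H2O2 libraries 13.7, 11.3 and 2.34 CPM. Unmodified mitochondria gave 16.5, 12.5 and 9.02 CPM, MitoCoat 12.0, 12.1 and 5.36 CPM, and MitoCoat-mRNA 15.6, 11.1 and 3.15 CPM. The groups overlapped throughout, and library 3 was the lowest of its group in 5 of 5 groups. In the fit without the number, H2O2 against control had a log2 fold change of 0.0037 (95% interval −1.55 to 1.56, edgeR adjusted p = 0.998). That interval spans large changes in either direction, but it includes the spread between numbers. Number by number, the log2 ratios of H2O2 to control were −0.10, 0.12 and −0.12. With unmodified mitochondria against H2O2 the log2 fold change was 0.47 (SE 0.48, adjusted p = 0.779), and 0.69 (SE 0.21, adjusted p = 0.0398) with the number as a block.

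The higher Lcn2 level with unmodified mitochondria was uneven across numbers. In number 3 it was 3.86-fold that of H2O2, and the smallest of the 3 ratios was 1.10-fold. MitoCoat gave a log2 fold change of 0.10 (SE 0.53) against H2O2 and MitoCoat-mRNA 0.12 (SE 0.63), with adjusted p of 0.964 and 1.00 in edgeR.

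The identifier listed for Serpina3n (ENSRNOG00000010410, chr6:127996165-128003418 on the minus strand of Rnor6.0) had 4 counts in control library 1 and 0 in the other 14 libraries, and was not tested. It lies inside ENSRNOG00000010478 on the opposite strand (chr6:127941526-128080889, plus strand), to which 1681 to 11406 counts per library were assigned. RefSeq places Serpina3n on the plus strand of GRCr8. Strands cannot be carried between these builds without an alignment, and C3 also changes strand between them, so whether this identifier is the expressed Serpina3n gene was not settled. Lack of counts is therefore given for the identifier, not for the gene. The enclosing gene ENSRNOG00000010478 was looked at after its counts were seen. It was not called in any of the 5 main comparisons (edgeR adjusted p from 0.511 to 1.00), and library 2 was its lowest in each group.

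Stat3 (ENSRNOG00000019742, chr10:88790408-88842233 on the minus strand of Rnor6.0) was lower after H2O2 in a difference that just missed the threshold. Control libraries held 309, 339 and 349 CPM and H2O2 libraries 280.4, 227 and 255 CPM, without overlap. That was a log2 fold change of −0.38 (SE 0.10, 95% interval −0.61 to −0.14, edgeR adjusted p = 0.0637). DESeq2 on 6 libraries called it (adjusted p = 0.0106), as did both fits over 15 libraries (0.0136 in edgeR, 0.00109 in DESeq2). The minimal filter (0.0515) and the number as a block (0.0830) did not. Of 6 edgeR fits without 1 library, 1 called it, without H2O2 library 1 (0.0403), and adjusted p reached 0.211. Unmodified mitochondria gave 301, 271 and 316 CPM, MitoCoat 263, 236 and 237 CPM, and MitoCoat-mRNA 229.6, 256 and 262 CPM. All overlapped H2O2, with log2 fold changes of 0.21, −0.06 and −0.03 (adjusted p = 0.418, 0.867 and 1.00). Against control, Stat3 was called lower with MitoCoat (log2 fold change −0.45, SE 0.09, adjusted p = 0.00663) and with MitoCoat-mRNA (−0.41, SE 0.08, adjusted p = 0.0121). The first held in 6 of 6 fits without 1 library, and the second was lost without control library 2 (adjusted p = 0.0546).

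**Figure D2:**
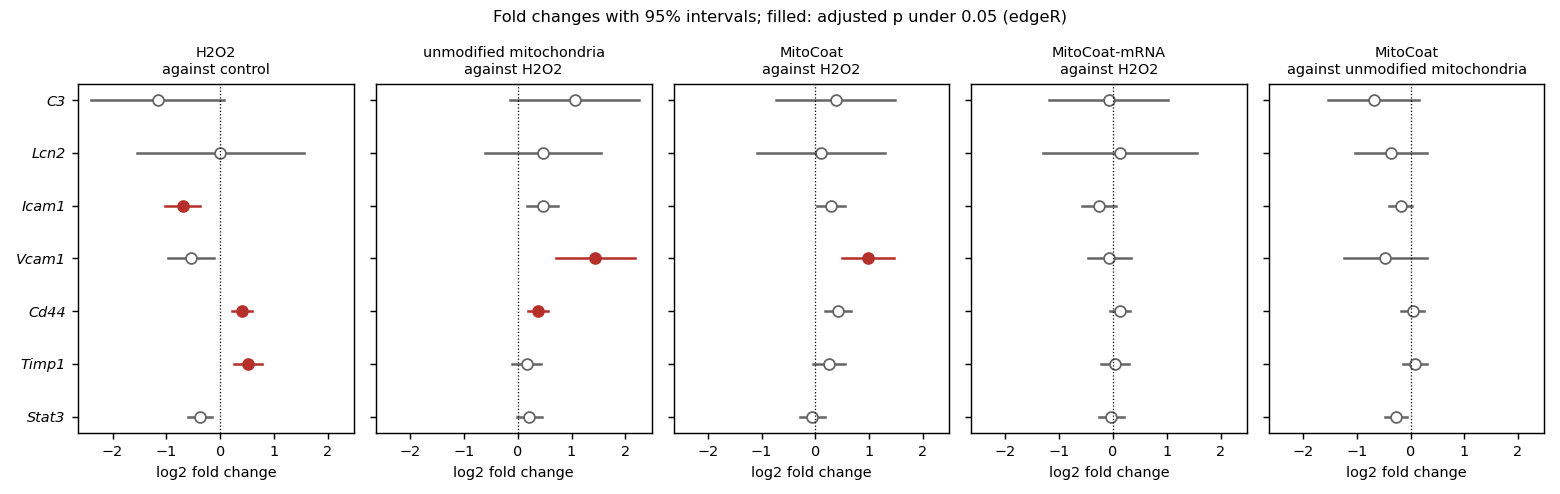
Log2 fold changes (horizontal axis) of the 7 genes with 95% intervals from edgeR in the 5 main comparisons, 3 libraries per group. Filled red points had an adjusted p under 0.05. Icam1 lay below 0 and Cd44 and Timp1 above 0 after H2O2, Vcam1 lay above 0 with either form of organelle, and with MitoCoat-mRNA no point was filled and the intervals of C3 and Lcn2 were the widest.

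Taking the genes by comparison, H2O2 moved them in both directions. Of the 7 tested, Cd44 and Timp1 rose, Icam1 fell, and C3, Lcn2, Vcam1 and Stat3 did not pass the test. That is 3 of 7 called, against 7.19% of the 15650 genes tested (2.97% higher and 4.22% lower). For 4 of 7 the groups did not overlap, against 27.7% of all tested genes. The median log2 fold change was −0.38 for the 7 genes and 0.01 for all tested genes, and the median absolute change was 0.52 against 0.20. Some choices moved the count. Among the fits without the number as a block, it was 5 with DESeq2 on 6 libraries (Timp1, Cd44, Icam1, Vcam1, Stat3) and ranged from 0 to 5 when 1 library was left out, with 0 without H2O2 library 2 or 3 or control library 2, 1 without control library 3 and 5 without H2O2 library 1. Calls over all genes moved too, from 1125 to 1793 with DESeq2, to between 376 and 577 in the 4 fits with 0 or 1 of the 7, and to 1166 without H2O2 library 1.

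Unmodified mitochondria against H2O2 raised Cd44 and Vcam1, 2 of 7 genes, where 3.59% of 15613 genes were called (1.86% higher). These H2O2 libraries are the ones compared with control above, so the lower Icam1 there and the higher Icam1 here rest in part on the same samples. All 7 fold changes were positive, with a median log2 of 0.47 against −0.01 over all tested genes. For Cd44, Icam1 and Vcam1 the groups did not overlap, 3 of 7 against 19.1% of tested genes (10.1% higher). Same-numbered libraries of these groups resembled each other, and with the number as a block 5 of 7 were called, all higher (C3, Lcn2, Cd44, Icam1, Vcam1), where 7.96% of all tested genes were called. The count was 0 or 1 when 1 library was left out. It was 0 without library 1 of unmodified mitochondria and without H2O2 library 2 or 3, and 1 without library 2 or 3 of unmodified mitochondria (Vcam1) or H2O2 library 1 (C3), while calls over all genes fell from 560 to between 254 and 444.

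MitoCoat against H2O2 raised Vcam1, 1 of 7 genes, where 3.05% of 15724 genes were called (1.47% higher). Cd44 and Icam1 lay wholly above H2O2 as well, so that 3 of 7 did not overlap, against 20.6% of tested genes (11.2% higher). The median log2 fold change was 0.28 for the 7 genes and 0.00 over all. The count was 2 (Cd44 and Vcam1) with DESeq2 on 6 libraries, where calls over all genes rose from 479 to 903. It was 0 without MitoCoat library 1 or 3 or H2O2 library 1 or 3, where calls over all genes fell from 479 to between 222 and 425.

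The organelles came from placenta, and genes with no counts in control or H2O2 libraries were summed in the other groups. Because these genes were picked for 0 counts in those libraries, some positive sum is expected in any other library. How large a sum this selection alone gives was not tested. CPM in these sums was taken over total counts, without TMM scaling. The 10157 genes with 0 counts in every control and H2O2 library summed to 42.1, 40.9 and 21.3 CPM with unmodified mitochondria and to 107.4, 83.7 and 48.2 CPM with MitoCoat. With MitoCoat-mRNA they summed to 15.9, 12.5 and 14.2 CPM. The mean levels of Cd44 and Timp1 had the same order as these sums, lowest with MitoCoat-mRNA and highest with MitoCoat, whereas C3, Lcn2, Icam1, Vcam1 and Stat3 were on average highest with unmodified mitochondria among these groups. In both organelle groups, library 3 had the lowest sum and the highest Vcam1 and C3. Cd44 followed the sums within MitoCoat, with library 1 highest and library 3 lowest in both, but not with unmodified mitochondria, where library 3 had the highest Cd44. The levels of the 7 genes in the placental preparations were not analysed here, and the part of delivered RNA in these results was not tested.

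With MitoCoat-mRNA against H2O2, 0 of 7 genes were called in edgeR, as were 0% of 15506 genes, and DESeq2 on 6 or 15 libraries also called 0. At an unadjusted p under 0.05, edgeR gave 0 of the 7 genes and 463 of all genes, and with the number as a block 1 of the 7 (Icam1) and 761 of all genes. The groups overlapped for each of the 7, where 8.9% of all tested genes did not overlap. The median log2 fold change was −0.03 and the median absolute change 0.08, against 0.11 over all tested genes. The intervals differ in what they allow. Without the block, that of Cd44 reached from −0.05 to 0.32 and that of Icam1 from −0.57 to 0.05, whereas Lcn2 ranged from −1.30 to 1.55. The numbers pair these libraries. With the number as a block, the intervals were −0.06 to 0.33 for Cd44, −0.44 to −0.08 for Icam1 (adjusted p = 0.949) and −0.15 to 0.49 for Lcn2.

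Coating could be set against no coating directly, in MitoCoat against unmodified mitochondria. The edgeR test called 0 of 7 genes and 0% of 15731 genes, with 1 of the 7 (Stat3) and 779 of all genes at an unadjusted p under 0.05. DESeq2 on 6 libraries called 0 of the 7 and 5 genes in all. Stat3 was 1.21-fold lower with MitoCoat, without overlap (log2 fold change −0.28, SE 0.09, edgeR adjusted p = 0.889). Icam1 did not overlap either, by the margin between 166.66 and 166.85 CPM, which made 2 of 7 against 11% of tested genes. For Vcam1 the log2 fold change was −0.47 with a 95% interval of −1.24 to 0.30, and for C3 it was −0.69 (−1.53 to 0.15). Cd44 differed by 0.04 (−0.18 to 0.26). Number by number, C3, Lcn2, Icam1, Vcam1 and Stat3 were lower with MitoCoat in 3 of 3. The numbers pair these libraries, and with the number as a block 0 of 7 genes and 0.0318% of tested genes were called, with 4 of the 7 (C3, Lcn2, Vcam1 and Stat3) and 1402 of all genes at an unadjusted p under 0.05. The block gave narrower intervals that lay below 0 for C3 (log2 fold change −0.60, 95% interval −0.86 to −0.34, adjusted p = 0.234), Vcam1 (−0.36, −0.65 to −0.07, adjusted p = 0.460), Lcn2 (−0.41, −0.74 to −0.08, adjusted p = 0.461) and Stat3 (−0.27, −0.45 to −0.10, adjusted p = 0.405).

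Each group that received a treatment was also compared with control, to order the levels. With unmodified mitochondria 2 of 7 genes were called (Timp1 and Cd44 higher), against 22.5% of tested genes (10.3% higher). With MitoCoat 4 of 7 were called (Timp1 and Cd44 higher, Icam1 and Stat3 lower), against 24.1%. With MitoCoat-mRNA 6 of 7 were called (Timp1 and Cd44 higher, C3, Icam1, Vcam1 and Stat3 lower), against 15.9%, and the block called the same 6 with 36.9% of all tested genes. These share the control libraries with each other and with H2O2 against control, so they are not separate evidence. When 1 library was left out, the counts ranged from 2 to 3, from 3 to 4 and from 3 to 6. The share of all genes called in these fits was not analysed here, so the ranges are not set against it. For MitoCoat, Icam1 (log2 fold change −0.43, adjusted p = 0.0219) was lost without MitoCoat library 2 (0.0785) or 3 (0.0602) or control library 2 (0.0627). For MitoCoat-mRNA, Vcam1 (log2 fold change −0.62, SE 0.18, adjusted p = 0.0469) was lost without MitoCoat-mRNA library 2 (0.129) or 3 (0.127) and without control library 1 (0.0782) or 2 (0.145). With the block, Vcam1 was −0.62 (SE 0.08, adjusted p = 1.74e-05). Icam1, 1.95-fold lower (−0.96, SE 0.14, adjusted p = 0.00329), was called in 6 of 6.

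Against MitoCoat-mRNA, unmodified mitochondria and MitoCoat were each called higher for Icam1 and Vcam1, 2 of 7 genes against 3.56% and 2.98% of tested genes (2.14% and 1.57% higher). With the number as a block, unmodified mitochondria against MitoCoat-mRNA called 4 of 7 genes and 7.33% of all tested genes, adding C3 (log2 fold change 1.03, adjusted p = 0.0108) and Cd44 (0.25, adjusted p = 0.0443). The numbers do not pair MitoCoat with MitoCoat-mRNA by the rule. There the block called 1 of 7 (Icam1) and 2.53% of all tested genes, and Vcam1 was lost (adjusted p = 0.0569). In unmodified mitochondria against MitoCoat-mRNA without the block, C3 had a log2 fold change of 1.14 (edgeR adjusted p = 0.147). It was called in 1 of 6 fits without 1 library, that without library 2 of unmodified mitochondria (adjusted p = 0.0119), and adjusted p reached 0.424. In order of mean level, Icam1 ran from MitoCoat-mRNA (114 ± 16.5 CPM) through H2O2 (136 ± 19.0), MitoCoat (166 ± 1.03) and unmodified mitochondria (188 ± 23.2) to control (222 ± 33.5, SD, n = 3 each), and no neighbours in that order differed by the test. Vcam1 ran from MitoCoat-mRNA (18.6 ± 3.38 CPM) and H2O2 (19.5 ± 3.85) through control (28.7 ± 5.56) and MitoCoat (38.8 ± 11.5) to unmodified mitochondria (53.4 ± 31.3), again without a called difference between neighbours. For Cd44 and Timp1 the order was control, H2O2, MitoCoat-mRNA, unmodified mitochondria, MitoCoat, and for both the step from control to H2O2 was the called one.

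**Figure D3:**
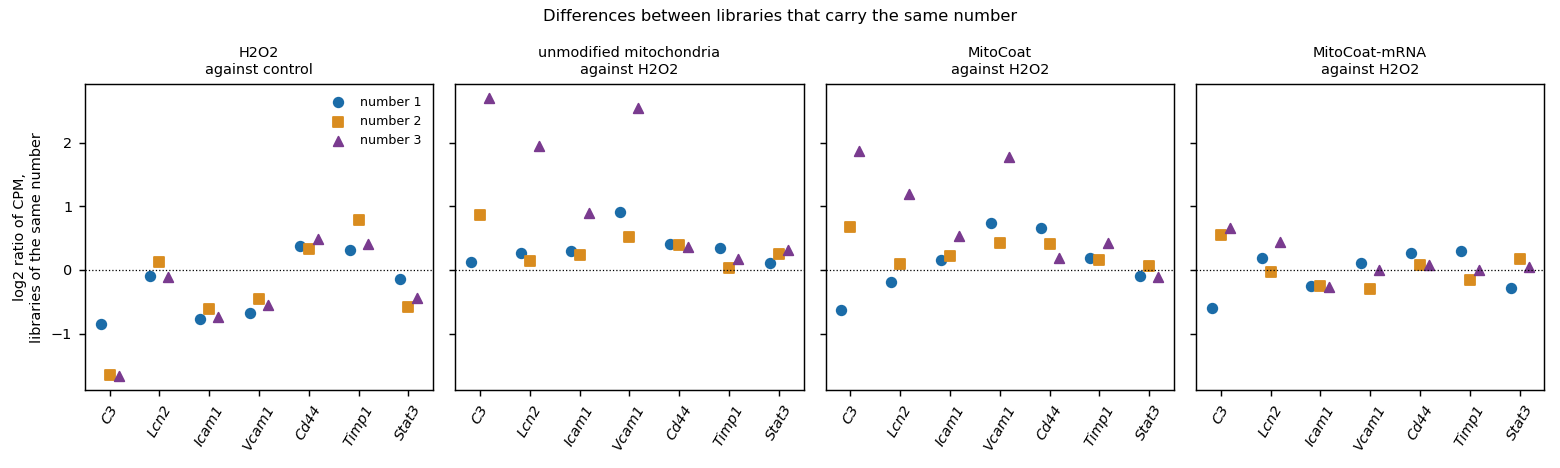
Log2 ratios of CPM (vertical axis) between libraries that carry the same number, for the 7 genes (horizontal axis) in 4 comparisons. With unmodified mitochondria and with MitoCoat, number 3 (triangles) had the largest ratio for C3, Lcn2, Icam1 and Vcam1, whereas with MitoCoat-mRNA the 3 ratios of Icam1 lay together at −0.25 to −0.27.

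Lcn2 and C3, both often used to mark inflammatory reactivity, had library numbers that kept to one side of the group mean in every group. The share of all tested genes that do so was not analysed here. The pattern is therefore not shown to be particular to genes of inflammatory reactivity. For Lcn2, number 3 lay below the mean of its group (log2 deviations of −1.59 to −0.44) in 5 of 5 groups, and numbers 1 and 2 lay above it in 5 of 5. For C3, number 1 lay above and number 2 below the group mean in 5 of 5 groups. No number of Cd44, Timp1, Stat3, Icam1 or Vcam1 kept to one side in all 5 groups. The spread within a group was wide for the same genes, since the highest library exceeded the lowest 1.83-fold to 5.85-fold for Lcn2 and 1.72-fold to 4.08-fold for C3, compared with 1.06-fold to 1.28-fold for Cd44.

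The responses to organelles were also uneven across numbers. In number 3, unmodified mitochondria stood above H2O2 6.48-fold for C3, 5.86-fold for Vcam1, 3.86-fold for Lcn2 and 1.87-fold for Icam1. The other numbers gave log2 ratios of 0.12 and 0.86 for C3, 0.90 and 0.52 for Vcam1, 0.27 and 0.14 for Lcn2, and 0.30 and 0.23 for Icam1. With MitoCoat, number 3 gave the largest ratios as well, with 3.67-fold for C3, 3.40-fold for Vcam1, 2.29-fold for Lcn2 and 1.45-fold for Icam1. In numbers 1 and 2 its log2 ratios were −0.62 and 0.67 for C3, −0.19 and 0.10 for Lcn2, 0.73 and 0.42 for Vcam1, and 0.15 and 0.23 for Icam1, so C3 and Lcn2 lay below H2O2 in number 1. The ratios of Cd44 for unmodified mitochondria were alike across numbers, at 0.40, 0.39 and 0.37 on the log2 scale. Number 3 was also where H2O2 library 3 held the lowest value of the H2O2 group for C3, Lcn2, Icam1 and Vcam1, and the same H2O2 libraries enter each ratio of MitoCoat and unmodified mitochondria. With number 3 left out of both groups, the log2 fold change of Vcam1 was 0.71 with unmodified mitochondria (edgeR adjusted p = 0.0608) and 0.57 with MitoCoat (adjusted p = 0.159), and 0 of 7 genes were called in either comparison or in H2O2 against control. Calls over all genes fell as well in these fits of 2 against 2 libraries, from 560 to 213 and from 479 to 153, and in H2O2 against control from 1125 to 122. What the numbers stand for is not given in the sources used here, and the cell makeup of the libraries was not analysed here.

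**Figure D4:**
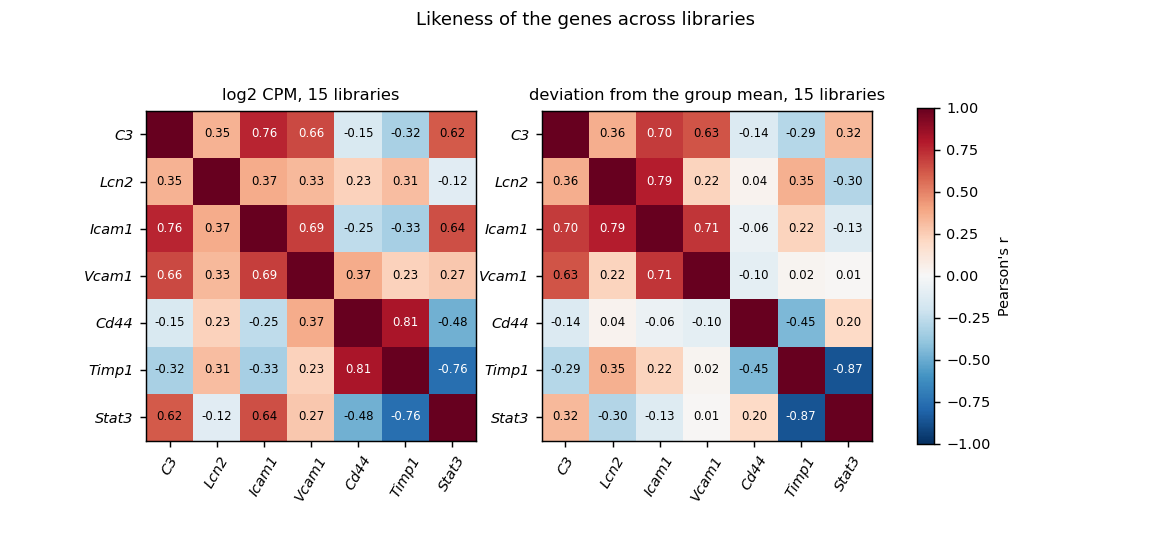
Pearson's r between the 7 genes over 15 libraries, for log2 CPM (left) and for deviations from the group means (right), with the colour scale from −1 to 1. Icam1, C3 and Vcam1 lay together in both panels, while the r of 0.81 between Timp1 and Cd44 turned to −0.45 within groups.

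Across the 15 libraries, the 7 genes fell into different patterns, given here as a description, since libraries of a group share their treatment. Icam1 had an r of 0.76 with C3 and 0.69 with Vcam1, and C3 and Vcam1 had an r of 0.66. After each group's mean was subtracted, these were 0.70, 0.71 and 0.63. Timp1 and Cd44, both higher with H2O2, had an r of 0.81 over the libraries and −0.45 within groups. Timp1 and Stat3 ran opposite in both views (−0.76 and −0.87). Stat3 was most like Icam1 over the libraries (0.64) but not within groups (−0.13). Lcn2 was also most like Icam1, at 0.37 over the libraries and 0.79 within groups. Among 13297 genes with a mean of at least 1 CPM, those most like Icam1 were ENSRNOG00000013825 (chr5:156026911-156074395, r = 0.93) and ENSRNOG00000013251 (chr4:65637407-65684743, r = 0.91). Those most like Lcn2 were ENSRNOG00000008837 (chr3:10327414-10375826, r = 0.93) and ENSRNOG00000055608 (chr1:81159107-81163689, r = 0.92). Their symbols were not given in the sources used here.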

How the data were processed

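According to the labels and the study's methods, the authors used Trimmomatic 0.36 for read trimming, STAR 2.5.2b for alignment against Rnor6.0, and featureCounts (Subread 1.5.2) for exonic counts of uniquely mapped reads. The deposited values are raw counts per gene, 1 table for each of 15 libraries. A further table, identical to 1 of these, was not used. Between 93.4% and 97.7% of counts from 1 to 20 were even, so both mates of a pair appear to have been counted, and counting error is larger than the counts alone imply. Groups came from the sample titles. No 2 libraries of a group were copies.

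Tests used edgeR 4.0.16 under R 4.3.3 (filterByExpr, TMM, quasi-likelihood F test, 6 libraries per comparison, 10 comparisons, Benjamini-Hochberg adjustment over all tested genes). The procedure was tested on simulated data. CPM used effective library sizes over 15 libraries and RPKM the exonic length. Likeness used log2 CPM with a prior count of 2. Numbers were taken to pair libraries where every same-number correlation of deviations from group means over 16631 genes exceeded 0.1. This held for unmodified mitochondria against H2O2 (0.219 to 0.264), MitoCoat-mRNA against H2O2 (0.109 to 0.326), MitoCoat against unmodified mitochondria (0.173 to 0.219), MitoCoat-mRNA against control (0.114 to 0.404) and unmodified mitochondria against MitoCoat-mRNA (0.149 to 0.264). It did not hold for H2O2 against control (0.0731 in number 2, with 0.311 and 0.322 in numbers 1 and 3), MitoCoat against H2O2 (lowest −0.0637) or the other 3. The rule judges each comparison apart. MitoCoat-mRNA thus counts as paired with both control and H2O2, although these do not count as paired with each other.

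All 8 genes are named, by rule, with the member most like each and the 2 genes most like Icam1 and Lcn2. The genes and lists were chosen with earlier results of these data known. Further lists (pan-reactive, NF-kB, STAT3 and partner genes, cell type markers) were not analysed here, because 0 of 32552 identifiers matched the reference table. Promoters were matched by symbol in RefSeq (GRCr8) for 8 of 8. Alternatives were RLE size factors, a filter of 1 count in total, edgeR or DESeq2 1.42.0 over 15 libraries, DESeq2 over 6, the number as a block and each library left out. Halved counts, number 3 left out, and left-out libraries in the 5 other comparisons were added after the data were seen. Figures were drawn with matplotlib.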

Additional observations from a re-analysis of the deposited data

How the results depend on the processing

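The number of the 7 genes called in H2O2 against control (3) was 5 with DESeq2 on 6 libraries, 5 with the number as a block, where C3 (log2 fold change −1.37, adjusted p = 0.00356) and Vcam1 (−0.55, 0.0207) were added, and 0 without number 3, and ranged from 0 to 5 with each library left out. In unmodified mitochondria against H2O2 (2), it was 5 with the block, 0 without number 3, and 0 to 1 with each library left out. In MitoCoat against H2O2 (1), it was 2 with DESeq2 on 6 libraries, 2 with the block, 0 without number 3, and 0 to 1 with each library left out. In the other main comparisons it was 0 under each alternative. The numbers do not pair the libraries by the rule in H2O2 against control, MitoCoat against H2O2, unmodified mitochondria or MitoCoat against control, or MitoCoat against MitoCoat-mRNA. In the first 2, the block moved the calls from 1125 to 1479 and from 479 to 924 genes in all. It added Lcn2 (adjusted p = 0.0371) and Vcam1 (0.0328) in unmodified mitochondria against control, and Vcam1 was lost in MitoCoat against MitoCoat-mRNA (0.0569). In the comparisons the numbers pair, it changed no member's call beyond those given. RLE size factors, the minimal filter, edgeR or DESeq2 over 15 libraries and halved counts kept each count within 1.5 times. The log2 fold change of Lcn2 in H2O2 against control, near 0 throughout, changed sign with RLE size factors (−0.0028), the minimal filter (−0.0089), edgeR over 15 libraries (−0.0137), DESeq2 over 15 (−0.0156) or 6 libraries (−0.0050), the block (−0.0130) and left-out libraries (−0.45 to 0.50). In MitoCoat against H2O2 without number 3, C3 was −0.24 and Lcn2 −0.051. With left-out libraries there, Lcn2 ranged from −0.36 to 0.52 and Stat3 from −0.13 to 0.017. In MitoCoat-mRNA against H2O2, C3 was 0.19 with the block, and with left-out libraries C3 ranged from −0.41 to 0.91, Lcn2 from −0.36 to 0.55, Timp1 from −0.027 to 0.16, Stat3 from −0.11 to 0.052 and Vcam1 from −0.22 to 0.059. In MitoCoat against unmodified mitochondria, Cd44 ranged from −0.061 to 0.12 and Vcam1 from −0.73 to 0.13. None of these reversed values was called in the reported fit. Over the single genes and alternatives, 406 values kept their direction and side of the threshold, 35 lost the call, 19 gained it and 30 changed sign. The cause of these shifts was not tested. A left-out library leaves 2 against 3, so fewer samples enter each such fit.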
